A study of Homo sapiens with 6 samples.

Results

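Cytosolic nucleic acid sensing was followed in MM.1S, a cell line from a human multiple myeloma, through 10 genes taken by symbol: the RNA sensors DDX58, IFIH1 and DHX58, the DNA sensor CGAS, the adaptors MAVS and STING1, the kinases TBK1 and IKBKE, the DNA exonuclease TREX1 and the RNA-editing enzyme ADAR. Of these 10 genes, 9 have a row among the 21850 genes counted, and all 9 passed the filter on low counts that left 13971 genes to test. TREX1 has no row under its symbol and was not taken as 0. RNA was sequenced on day 3 after lentiviral transduction with a short hairpin RNA against PRKCN (shPRKCN, 3 libraries, genotype label PRKCN knockdown) or with a scramble hairpin (shNT, 3 libraries, genotype label WT). Both groups therefore carry a lentivirus and a hairpin RNA, untransduced cells were not analysed here, and the knockdown group rests on 1 hairpin construct in 1 cell line. Nothing in the labels says that the 3 libraries of a group came from separate cultures, so every p-value measures the spread between these libraries, which may be technical.

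In mammalian cells, RIG-I (encoded by DDX58) and MDA5 (encoded by IFIH1) recognize double-stranded RNA in the cytosol and signal through MAVS on mitochondria, whereas cGAS recognizes double-stranded DNA and makes the cyclic dinucleotide cGAMP, which binds STING1 at the endoplasmic reticulum. Both routes meet at the kinases TBK1 and IKKε, which phosphorylate IRF3 and IRF7 and so lead to interferon transcription. ADAR and TREX1 act against the response to the cell's own RNA and DNA.

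Library totals ran from 35625564 to 37730003 counts. The targeted gene, listed by its symbol PRKD3, was at 1262 ± 41.7 CPM (counts scaled to library size with TMM factors; SD, n = 3) in shNT and 517 ± 23.4 CPM (SD, n = 3) in shPRKCN cells, and IRF4, a transcription factor on which myeloma cells depend, was at 624 ± 12.5 CPM and 173 ± 3.19 CPM (SD, n = 3 in each group). The 9 plasma cell markers examined summed to between 9134 and 9256 CPM (here scaled to the library total alone) in shNT and between 7873 and 8152 CPM in shPRKCN libraries. Most of that sum was JCHAIN, at 5358 and 5412 CPM with TMM factors. By the limits given below, 4 of the 9 (44.4%) fell, against 10.6% of all genes tested. They were IRF4, XBP1 (to 41.1% of shNT), TNFRSF17 (to 45.7%) and SLAMF7 (to 51.2%). Of the others, PRDM1 (-0.54) and MZB1 (-0.23) were lower on the log2 scale and SDC1 (0.18) was higher, all inside the fold limit. CD38 was at -0.01 and JCHAIN at 0.01. The median log2 fold change of the 9 was -0.54. The 9 markers of T, myeloid and epithelial cells summed to between 12.5 and 14.03 CPM and between 29.2 and 33.0 CPM. Of these, CD3D and LYZ had at most 3 counts in any library, and nearly all of the difference lay in CD3E, which went from between 379 and 419 counts to between 1021 and 1150. The part of these shifts in the results below was not tested. In bulk RNA a change in the cells that express a gene and a change of RNA per cell cannot be told apart.

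After PRKCN knockdown CGAS and STING1, the sensor and adaptor of the DNA route, both fell, to 63.0% and 46.7% of the shNT level in CPM. None of the 4 genes of the RNA route in this panel fell, and DDX58, IFIH1, DHX58 and MAVS were at 148%, 111%, 134% and 109% of the shNT level. IKBKE rose to 152%, TBK1 was at 99.3%, and ADAR was at 119%. A gene is said to have risen or fallen where edgeR's quasi-likelihood test gave a Benjamini-Hochberg adjusted p under 0.05 over all genes tested together with a log2 fold change beyond 0.58, the limits in the methods of the study. By this rule 1 of the 9 genes rose, against 6.15% of all genes tested, and 2 fell, against 10.6% of all genes tested. With the adjusted p alone, 6 (66.7%) were higher and 2 (22.2%) lower. The same limit holds for 26.5% (higher) and 27.8% (lower) of all genes tested. In 7 of the 9 the groups did not overlap in any library, which is so for 58.8% of all genes tested. The median log2 fold change of the 9 was 0.15, against 0.0012 over all genes tested. These shares rest on 9 genes and were not tested against the background, so the description that follows is of single genes.

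**Figure D1:**
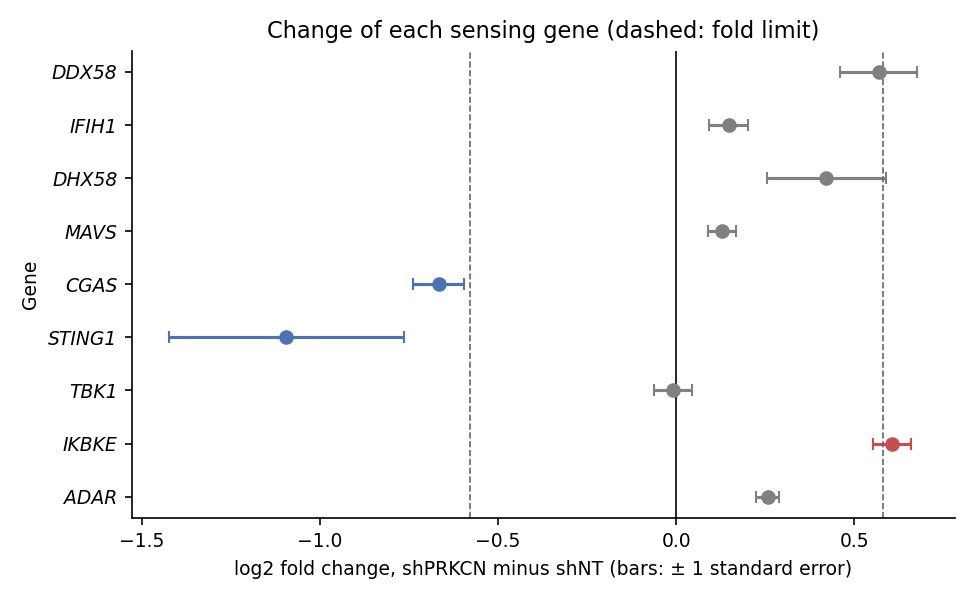
Log2 fold change of each of the 9 genes (x axis, shPRKCN minus shNT) with bars of 1 standard error (SE); dashed lines mark the fold limit of 0.58 in either direction. CGAS and STING1 (blue) lie beyond the lower limit and IKBKE (red) just beyond the upper one, while DDX58 lies just inside it and TBK1 at 0.

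Levels between genes were compared on the deposited FPKM scale, which divides by gene length. In shNT cells the order was ADAR (98.0 ± 3.25 FPKM), MAVS (12.9 ± 0.734), TBK1 (12.6 ± 0.288), IFIH1 (10.4 ± 0.371), IKBKE (10.4 ± 0.452), CGAS (8.48 ± 0.793), DDX58 (1.53 ± 0.124), DHX58 (1.19 ± 0.049) and STING1 (0.552 ± 0.041; SD, n = 3 for each). MAVS and TBK1 overlapped in this order, as did IFIH1 and IKBKE, whereas in every other pair of neighbours all 3 libraries of the higher gene lay above all 3 of the lower. The median of all tested genes was 4.78 FPKM in shNT cells, so DDX58, DHX58 and STING1 were low-abundance transcripts, at the 30.7th, 27.5th and 18.8th percentile of the genes tested, and ADAR was at the 96.5th. In shPRKCN cells IKBKE, at 16.0 ± 0.793 FPKM (SD, n = 3), stood second, above MAVS and TBK1 in every library. STING1 stayed last in the order at 0.261 ± 0.028 FPKM (SD, n = 3).

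**Figure D2:**
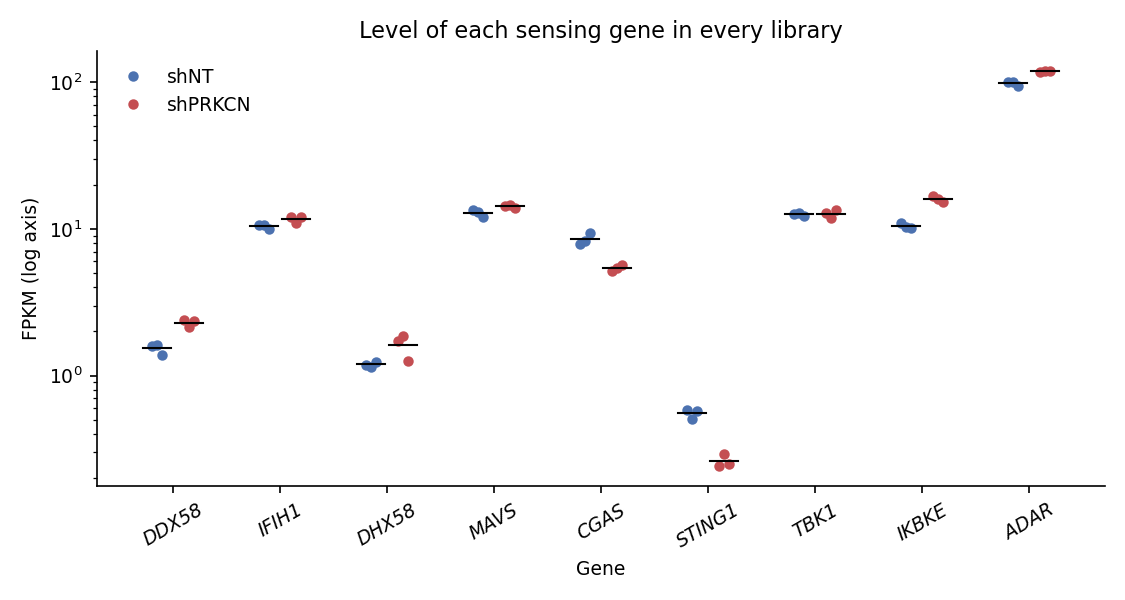
FPKM of the 9 genes (y axis, log scale) in every library, with shNT in blue, shPRKCN in red and the mean of 3 libraries as a black line. The groups overlap for TBK1, and for DHX58 shPRKCN 3 lies at 1.26 FPKM, close to the highest shNT library at 1.25 FPKM.

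DDX58 encodes RIG-I, the helicase that detects RNA with a 5′ triphosphate, and is RIGI in RefSeq (chromosome 9, 32455302 to 32526196, GRCh38.p14). It had 261, 278 and 243 counts in shNT and 412, 372 and 408 in shPRKCN libraries. Every shPRKCN library lay above every shNT library, in FPKM from 1.39 to 1.62 against from 2.14 to 2.41. As a log2 fold change the difference was 0.57 (SE 0.109, edgeR adjusted p = 7.6e-06), just inside the fold limit. It passed that limit at 0.59 when shNT 1 was left out, at 0.62 without shNT 2, at 0.61 without shPRKCN 2 and at 0.59 with library-size scaling, so that whether DDX58 counts as having risen depends on these choices.

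IFIH1 encodes MDA5, which detects long double-stranded RNA (chromosome 2, 162267074 to 162318684). It had 1360, 1408 and 1352 counts in shNT and 1599, 1463 and 1627 in shPRKCN libraries. The groups did not overlap, but the gap was narrow, with 10.7 FPKM in the highest shNT and 10.9 FPKM in the lowest shPRKCN library. The log2 fold change of 0.15 (SE 0.055, edgeR adjusted p = 0.019) lay far inside the fold limit. The adjusted p was 0.095 without shNT 3, 0.081 without shPRKCN 1 and 0.069 without shPRKCN 3, and ran from 0.0051 to 0.095 over all alternatives.

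DHX58 encodes LGP2, a helicase of the same family that lacks the signaling domains of RIG-I and MDA5 and modulates both (chromosome 17, 42101411 to 42112714). It had 112, 113 and 125 counts in shNT and 170, 185 and 126 in shPRKCN libraries. The libraries shPRKCN 1 and shPRKCN 2 lay above shNT, and shPRKCN 3 lay level with the highest shNT library, at 3.32 against 3.34 CPM and at 1.26 against 1.25 FPKM. This gave a log2 fold change of 0.42 (SE 0.168, edgeR adjusted p = 0.029). The adjusted p was 0.065 with DESeq2, and 0.058, 0.063, 0.087 and 0.19 without shNT 1, shNT 2, shPRKCN 1 and shPRKCN 2, while without shPRKCN 3 the log2 fold change was 0.58 and passed both limits (edgeR adjusted p = 0.0048). The difference in DHX58 is therefore not settled by these 6 libraries.

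MAVS, the mitochondrial adaptor on which RIG-I and MDA5 converge (chromosome 20, 3846834 to 3876118), had 5676, 5742 and 5383 counts in shNT and 6231, 6489 and 6141 in shPRKCN libraries. The groups did not overlap, and the log2 fold change was small at 0.13 (SE 0.039, edgeR adjusted p = 0.0047). Without shNT 3 it was 0.08 (edgeR adjusted p = 0.088). The FPKM of MAVS rest on an implied length of 11855 bases, the longest of the 9 genes, so its place in the order of levels depends on the transcript model used for the length.

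The sequences before the start sites of DDX58, IFIH1 and IKBKE are shown because DDX58 and IKBKE are the genes of this panel with the largest increases and IFIH1 is the RNA sensor with the smallest. RefSeq promoter windows (GRCh38.p14) were found for 7 of the 10 genes and not for DHX58, CGAS and STING1. Capitals mark each match, on either strand, to 1 of 4 letter patterns. The pattern for the interferon-stimulated response element (ISRE) was GAAA, any 2 bases and GAAA, that for a composite of an ETS and an IRF site GGAA, any 2 bases and GAAA, that for NF-κB GGG, any 5 bases and CC, and that for AP-1 TGANTCA. Each line gives the 250 bases before the annotated start, in the sense of the gene.

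DDX58, minus strand, chr9:32526197-32526446: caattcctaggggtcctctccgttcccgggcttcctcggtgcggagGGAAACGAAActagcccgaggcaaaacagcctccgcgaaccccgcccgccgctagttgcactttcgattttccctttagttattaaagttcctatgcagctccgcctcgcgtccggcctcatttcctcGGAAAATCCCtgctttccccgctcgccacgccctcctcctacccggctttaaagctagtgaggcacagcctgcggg

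IFIH1, minus strand, chr2:162318685-162318934: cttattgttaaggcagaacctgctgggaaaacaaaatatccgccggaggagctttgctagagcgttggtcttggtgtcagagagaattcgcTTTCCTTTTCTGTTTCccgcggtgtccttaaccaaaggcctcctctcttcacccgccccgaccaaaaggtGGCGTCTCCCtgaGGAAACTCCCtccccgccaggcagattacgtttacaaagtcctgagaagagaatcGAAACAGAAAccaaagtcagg

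IKBKE, plus strand, chr1:206470226-206470475: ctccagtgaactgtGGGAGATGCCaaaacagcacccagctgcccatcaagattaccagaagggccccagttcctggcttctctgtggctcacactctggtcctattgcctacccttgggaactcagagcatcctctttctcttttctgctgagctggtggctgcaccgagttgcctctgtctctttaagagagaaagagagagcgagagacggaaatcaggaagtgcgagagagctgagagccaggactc

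In the DDX58 window the ETS-IRF composite pattern matches once, as GGAAACGAAA from base -204 to -195 before the start, and the NF-κB pattern once. In IFIH1 the ISRE pattern matches 3 times, as GAAACAGAAA from base -21 to -12 and as a pair that overlap on the opposite strand between bases -159 and -144, and the NF-κB pattern matches 2 times. IKBKE holds 1 NF-κB match and none to the other patterns. Of the other windows, MAVS, TBK1 and TREX1 hold 1 NF-κB match each, and AP-1 matches lie in TREX1 and in 2 of the 3 windows of ADAR. The ISRE pattern occurs in 3.57% of 35116 RefSeq windows of the same length (250 bases before and 50 after the start), the composite in 2.82%, AP-1 in 7.71% and NF-κB in 58.7%. The patterns were chosen with the changes of these genes in view, and a match says only that the letters are there.

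CGAS encodes cGAS, the sensor of double-stranded DNA (chromosome 6, 73423711 to 73452297). It had 893, 976 and 1131 counts in shNT and 610, 645 and 684 in shPRKCN libraries. The 3 shNT libraries spread from 7.83 to 9.37 FPKM and the 3 shPRKCN libraries from 5.16 to 5.70 FPKM, so that the distance between the groups was larger than the spread within either. On the log2 scale CGAS changed by -0.67 (SE 0.071, edgeR adjusted p = 1.2e-12). It stayed beyond the fold limit with any 1 library left out, between -0.72 and -0.59.

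STING1, the adaptor that binds cGAMP (chromosome 5, 139475533 to 139482758), was barely expressed. It had 51, 46 and 53 counts in shNT and 22, 27 and 23 in shPRKCN libraries, with no overlap between the groups. The log2 fold change was -1.09 (SE 0.328, edgeR adjusted p = 0.0036), and the 95% interval, from -1.74 to -0.45, is the widest of the 9 genes, on the fewest counts. With 1 library left out the log2 fold change ran from -1.19 to -1.04. On the log2(FPKM + 1) scale, which compresses low levels, it was -0.30, and CGAS was -0.56 on that scale, both inside the fold limit.

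Between the related kinases the change was unequal. TBK1 (chromosome 12, 64452120 to 64502114), which is expressed widely, had 1538, 1625 and 1585 counts in shNT and 1609, 1506 and 1732 in shPRKCN libraries, and the shPRKCN libraries enclosed the shNT range. Its log2 fold change was -0.0096 with a 95% interval from -0.11 to 0.095 (edgeR adjusted p = 0.89), and its sign changed under several alternatives. IKBKE encodes IKKε, the inducible relative of TBK1 (chromosome 1, 206470476 to 206496889). It had 1395, 1356 and 1362 counts in shNT and 2234, 2138 and 2056 in shPRKCN libraries, every shPRKCN library far above every shNT library. The RefSeq span of IKBKE overlaps the noncoding genes IKBKE-AS1 and MIR6769B, which have no row, and reads from them were not separated from IKBKE. The log2 fold change was 0.60 (SE 0.053, edgeR adjusted p = 3.5e-16), with a 95% interval from 0.50 to 0.71 that spans the fold limit. It was 0.57 without shPRKCN 1 and 0.58 on the log2(FPKM + 1) scale, just inside the limit in both, with adjusted p of 3.0e-14 and 1.5e-05 (edgeR and limma).

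Ratios within a library need no scaling between libraries. The ratio of IKBKE to TBK1 in FPKM was 0.863, 0.794 and 0.818 in shNT and 1.32, 1.35 and 1.13 in shPRKCN libraries. TBK1 was thus the more abundant kinase transcript per length in every shNT library and IKBKE in every shPRKCN library. The ratio of DDX58 to IFIH1 went from 0.146 ± 0.0070 to 0.196 ± 0.0027 (SD, n = 3 in each group), and that of CGAS to IFIH1, a DNA sensor against an RNA sensor, from 0.815 ± 0.106 to 0.463 ± 0.034. STING1 to MAVS, the adaptors of the DNA and RNA routes, went from 0.043 ± 0.0044 to 0.018 ± 0.0015. These 4 ratios did not overlap between the groups, while that of DHX58 to IFIH1 did, at 0.115 ± 0.0088 and 0.139 ± 0.033. With 3 libraries against 3 the 2-sided exact permutation test cannot go below p = 0.1, which these 4 reached (0.125 with Benjamini-Hochberg adjustment over the 5 ratios). DHX58 to IFIH1 gave p = 0.4 in the same exact test. The ratios restate the values of the single genes above and add no separate evidence of a change.

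**Figure D3:**
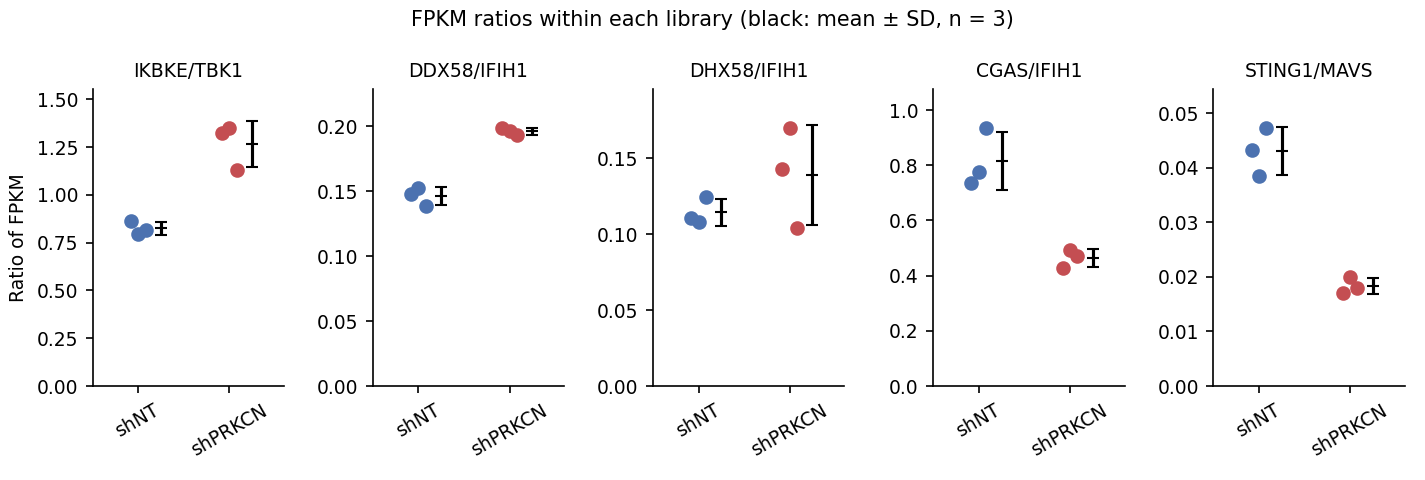
Ratio of the FPKM of gene pairs in each library (y axis, linear from 0), with shNT in blue, shPRKCN in red and the mean ± SD of 3 libraries in black. Each panel has its own scale; IKBKE/TBK1 lies below 1 in all shNT and above 1 in all shPRKCN libraries, and CGAS/IFIH1 and STING1/MAVS are lower in all shPRKCN libraries.

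ADAR, which converts adenosine to inosine in double-stranded RNA and so keeps self RNA from MDA5 (chromosome 1, 154582057 to 154627997), was by far the most abundant of the genes. It had 25491, 26200 and 25371 counts in shNT and 30704, 31858 and 32059 in shPRKCN libraries, without overlap. The log2 fold change of 0.26 (SE 0.033, edgeR adjusted p = 4.6e-10) was inside the fold limit and stayed between 0.23 and 0.28 over all alternatives. The counts are per gene and do not separate the interferon-induced long form of ADAR from the constitutive short form. For TREX1, which degrades cytosolic DNA (chromosome 3, 48465830 to 48467645), the RefSeq span lies inside those of ATRIP and of the read-through transcript ATRIP-TREX1, which are counted under their own names with between 13 and 21 and between 4 and 16 counts per library. These rows were not taken as a measure of TREX1. The exact permutation test of each gene's log2 CPM gave the smallest possible p of 0.1 for 7 of the 9 genes, 0.2 for DHX58 and 0.9 for TBK1.

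Genes around the sensors were taken from 6 lists of regulators, effectors and signaling partners, with 104 tested genes in all, of which 8 (7.69%) rose and 5 (4.81%) fell, against 6.15% and 10.6% of all genes tested. At an adjusted p under 0.05 alone, 37 (35.6%) were higher and 26 (25%) lower, against 26.5% and 27.8% of all genes tested, and the median log2 fold change was 0.06. Among 23 regulators of RIG-I, MDA5 and MAVS, 2 (8.7%) rose and 1 (4.35%) fell (median 0.06). DDX60, a helicase linked to RIG-I signaling, had 18, 6 and 22 counts in shNT and 212, 224 and 225 in shPRKCN libraries, a log2 fold change of 3.80 (SE 0.238) that rests on few control reads. On the log2(FPKM + 1) scale the change of DDX60 was 0.61, just beyond the fold limit, and the filter of at least 10 counts in every library removed it. RNF135, a ubiquitin ligase that activates RIG-I, rose by 0.69 on the log2 scale (SE 0.104), and on the log2(FPKM + 1) scale its change was 0.53, inside the limit. TRIM25, another ligase of RIG-I, had a log2 fold change of 0.07 (edgeR adjusted p = 0.095). YWHAH, a 14-3-3 protein that escorts MDA5, fell by 0.67 on the log2 scale (SE 0.042).

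Of 23 other genes of DNA sensing and the cGAS-STING route, 2 (8.7%) rose and 0 fell by edgeR with both limits (median -0.02). Over all genes tested these shares were 6.15% and 10.6%. By the adjusted p alone 7 (30.4%) were higher and 5 (21.7%) lower, against 26.5% and 27.8% of all genes tested. ENPP1, the ectoenzyme that hydrolyses cGAMP, was at 5.85 ± 0.618 CPM in shNT cells and rose to 9.77 ± 0.800 CPM (SD, n = 3), or 0.74 as a log2 fold change (SE 0.117, and 0.38 on the log2(FPKM + 1) scale). The other was ZDHHC1, named here after its values were seen, with between 18 and 84 counts per library. Its log2 fold change was 0.87 (SE 0.322, edgeR adjusted p = 0.019). The groups overlapped, with shPRKCN 3 at 0.948 CPM below shNT 1 at 1.02 CPM. IFI16, a nuclear and cytosolic DNA sensor, had a log2 fold change of 0.48 (SE 0.036, edgeR adjusted p = 3.0e-19), so the members of the DNA route did not share 1 direction. AIM2, the inflammasome DNA sensor, and ZBP1, a sensor of Z-form nucleic acids, had log2 fold changes of -0.02 and 0.08 (adjusted p = 0.84 and 0.077 with edgeR).

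Among 15 tested genes for enzymes that degrade or mark self nucleic acids and for related factors, 0 rose and 3 (20%) fell by edgeR with both limits (median 0.07). Over all genes tested 6.15% rose and 10.6% fell. By the adjusted p alone 7 (46.7%) were higher and 6 (40%) lower, against 26.5% and 27.8% of all genes tested. These differences in share were not tested. LSM11, a factor of histone pre-mRNA processing in which inherited defects cause an interferonopathy, was at 14.6 ± 0.941 CPM in shNT and 5.15 ± 0.264 CPM in shPRKCN cells (SD, n = 3), or -1.50 as a log2 fold change (SE 0.107). PLD4, an endolysosomal exonuclease, had -1.05 (SE 0.106) and RNASEH2A, the catalytic subunit of the RNase H2 complex, -0.69 (SE 0.072) on the log2 scale. The other RNase H2 subunits, RNASEH2B (-0.35) and RNASEH2C (-0.19), were also lower on the log2 scale with adjusted p of 1.5e-06 and 1.4e-04 (edgeR), inside the fold limit. SAMHD1, a dNTP hydrolase, was higher at 0.34 (SE 0.037, edgeR adjusted p = 3.2e-12).

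Interferon-induced proteins that bind foreign or double-stranded RNA had 3 of 11 tested genes (27.3%) risen and 1 (9.09%) fallen. Over all genes tested 6.15% rose and 10.6% fell. By the adjusted p alone 5 (45.5%) were higher and 2 (18.2%) lower, against 26.5% and 27.8% of all genes tested. The counts are small and were not tested against these shares. The median of 0.29 on the log2 scale is the value of OASL, which had between 6 and 12 counts per library (SE 0.579, edgeR adjusted p = 0.70). ZNFX1 (0.84, SE 0.060), a helicase that binds viral RNA, and the oligoadenylate synthetases OAS3 (0.73, SE 0.083) and OAS2 (0.66, SE 0.044) rose on the log2 scale. ISG20, an exonuclease, fell by 0.68 on the log2 scale (SE 0.071), and EIF2AK2, which encodes the RNA-activated kinase PKR, had -0.07 (edgeR adjusted p = 0.22). IFIT5, which binds foreign RNA and is named here after its values were seen, was lower at -0.53 on the log2 scale (edgeR adjusted p = 3.2e-07), inside the fold limit. Its relatives IFIT3 (0.53, edgeR adjusted p = 0.029) and IFIT1 (0.14, edgeR adjusted p = 0.55) had the opposite sign, on few counts. OAS1 was higher at 0.37 (edgeR adjusted p = 9.2e-07), also inside the limit. On the log2(FPKM + 1) scale OAS3 (0.52) and ISG20 (-0.57) lay inside the fold limit.

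Below the adaptors, 1 of 22 signaling genes (4.55%) rose and 0 fell by edgeR with both limits (median 0.02). Over all genes tested 6.15% rose and 10.6% fell. By the adjusted p alone 7 (31.8%) were higher and 6 (27.3%) lower, against 26.5% and 27.8% of all genes tested. The gene that rose, TBKBP1, a scaffold of TBK1, had 6, 7 and 21 counts in shNT and 69, 44 and 37 in shPRKCN libraries. Its log2 fold change was 2.10 (SE 0.407), on few control reads. On the log2(FPKM + 1) scale it was 0.25, inside the fold limit. The filter of at least 10 counts in every library removed it. The transcription factors IRF3 (0.11, edgeR adjusted p = 0.042) and IRF7 (0.17, edgeR adjusted p = 0.076) showed small log2 fold changes, and leaving out single libraries took the adjusted p to as much as 0.27 for IRF3 and as little as 0.011 for IRF7. TRAF3, the ligase between MAVS and the kinases, had a log2 fold change of 0.16 (edgeR adjusted p = 0.0051, 0.053 in the weakest alternative). The scaffolds TANK (-0.09, edgeR adjusted p = 0.21) and AZI2 (-0.17, edgeR adjusted p = 0.029, up to 0.26 over the alternatives) had log2 fold changes below 0.

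Of 31 type I and III interferons, receptors and signal transducers, 13 have a row, and IFNB1 is not among them. IFNE and IFNW1 had at most 1 count in any library. Among the 11 tested genes of this list 0 rose and 0 fell by edgeR with both limits (median 0.10). Over all genes tested 6.15% rose and 10.6% fell. By the adjusted p alone 4 (36.4%) were higher and 1 (9.09%) lower, against 26.5% and 27.8% of all genes tested. IRF9, the DNA-binding subunit of the interferon-activated complex ISGF3, had a log2 fold change of 0.56 (SE 0.085, edgeR adjusted p = 6.0e-08), and passed the fold limit at 0.62 without shNT 1 and at 0.60 without shPRKCN 2. STAT2, which binds IRF9, had a log2 fold change of -0.06 (edgeR adjusted p = 0.15). The receptor chains IFNAR1 (-0.12, edgeR adjusted p = 0.0036) and IFNAR2 (0.10, edgeR adjusted p = 0.015) had opposite signs on the log2 scale. The adjusted p of both passed 0.05 in the weakest alternative, at 0.051 for IFNAR1 and 0.055 for IFNAR2. JAK1 (0.25, edgeR adjusted p = 4.9e-09) and TYK2 (0.29, edgeR adjusted p = 5.9e-08), kinases named here after their values were seen, were higher on the log2 scale, inside the fold limit.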

How the data were processed

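The authors deposited raw counts for 21850 genes in 6 libraries, and FPKM values for the same libraries. For all 21850 genes the deposited FPKM equal the counts divided by the library total and 1 gene length (relative tolerance 1e-04). The submitters' processing notes name GRCh38.p14, FastQC, HISAT2 and StringTie. The counting program, annotation and strandedness are not given in the sources used here, so overlapping genes cannot be separated. RefSeq noncoding genes that have no row overlap DDX58, IKBKE and ADAR.

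Groups came from the treatment labels. Counts were filtered with filterByExpr, scaled by TMM and tested over 13971 genes with edgeR 4.0.16 (quasi-likelihood, R 4.3.3), with Benjamini-Hochberg adjustment; the study's own tool, DESeq2 (1.42.0 here), was an alternative. The standard error is the log2 fold change divided by the square root of F, and 95% intervals are 1.96 standard errors to either side. Other alternatives were RLE and library-size scaling, no filter, at least 10 counts in every library, a replicate block, each library left out, limma 3.58.1 on FPKM in log2 after adding 1 or 0.1, and no fold limit. Libraries of a group differed beyond sampling noise (chi-square per degree of freedom 3.38 to 4.80, and 63.8 to 70.2 between groups). The edgeR and DESeq2 steps were run on simulated data in which all planted changes were well beyond the fold limit. That run does not show how changes near the limit are called. Text names all members, a fixed set of pathway genes (1 of which is not reported here) and, in each list, up to 3 genes per direction with the largest called change and a mean of at least 50 counts. Members and lists were chosen with earlier results of these data known.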

Additional observations from a re-analysis of the deposited data

How the results depend on the processing

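With 1 gene risen (IKBKE) and 2 fallen (CGAS and STING1) of the 9 as the starting point, RLE scaling, DESeq2, testing without a filter, requiring 10 or more counts of each library, and log2(FPKM + 0.1) gave the same counts. Library-size scaling gave 2 risen, log2(FPKM + 1) gave 0 risen and 0 fallen by limma with both limits, and dropping the fold limit gave 6 higher. Leaving out 1 library gave between 0 and 2 risen: 0 without shPRKCN 1, and 2 without shNT 1, shNT 2 or shPRKCN 2 (with DDX58) and without shPRKCN 3 (with DHX58). CGAS and STING1 stayed fallen with every library left out. TBK1, which is near 0, had a log2 fold change of 0.010 with library-size scaling, 0.0077 and 0.0081 on the log2(FPKM + 1) and log2(FPKM + 0.1) scales, and from -0.046 to 0.034 with single libraries left out; AIM2 ran from -0.078 to 0.039 when libraries were left out. The 104 genes of the lists gave 3 risen on the log2(FPKM + 1) scale, and 37 higher and 26 lower with no fold limit. Over all genes tested, 859 rose and 1475 fell; the counts were 317 and 651 on the log2(FPKM + 1) scale and 3700 and 3877 with no fold limit. The main fit did not treat equal replicate numbers as pairs. Same-numbered libraries had deviations from their group means that correlated at -0.042, -0.013 and 0.004, which shows no visible shared effect. With the number as a block, 1 member rose and 2 fell, and the lists gave 8 and 5, as without it. At 50 or fewer counts, as for STING1, DDX60 and TBKBP1 in at least 1 group, depth limits the size of a fold.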
